A study of Mus musculus with 16 samples.

Results

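The genes described here are Fcrls, Klrb1b, Epcam, Gfra2, Fgfr1, Blnk, Slc27a3, Ephx1, Cyp2s1 and Hr, 10 of the 24532 genes in the table. They were chosen because their FPKM (fragments mapped to a transcript, scaled to its length and to the library's mapped fragments) was seen to be higher in the splenic population P-IV than in P-I or P-III. The levels in these 3 populations are therefore given as a description and were not tested. All 10 genes were above 1 FPKM in both P-IV libraries and so passed the filter on low values, which left 11335 genes for the tests. At least 4 of the 10 (Fcrls, Slc27a3, Blnk and Ephx1) are also among the genes that the study picked from these libraries for P-IV, so their low levels elsewhere are no independent evidence. That list was read here only in part, and others of the 10 may be on it.

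RNA was sequenced from spleen cells sorted from C57BL/6 mice of post-natal week 12, in 16 libraries of 8 groups with 2 libraries each. P-values measure the spread between these libraries, with 1 estimate per gene shared by all 8 groups. The study counts mice as its replicates. GM-CSF, a cytokine that drives growth and activation of myeloid cells, was given to treated mice by 3 once-daily injections. From treated mice came the CD11b+ CD115-high populations P-IV (Ly6C-, MHC II+, CD301b+), P-III (Ly6C-, MHC II+, CD301b-) and P-I (Ly6C+), and, from the CD11c-high MHC II+ gate of dendritic cells, DC-Xs (XCR1-, 33D1-), cDC1s (XCR1+, 33D1-) and cDC2s (XCR1-, 33D1+). Control cDC1s and control cDC2s came from mice that were not given GM-CSF. According to the study, DC-Xs are mainly P-IV cells with some P-III cells, so DC-X libraries are other samples of largely the same cells. CD301b, which separates P-IV from P-III, is encoded by Mgl2, and Mgl2 stood at 773 and 803 FPKM in P-IV, 50.4 and 64.1 FPKM in P-III, and 32.6 and 20.5 FPKM in P-I. Xcr1 was at 169 to 258 FPKM in the 4 cDC1 libraries and at most 1.69 FPKM in any other library, which fits the sort. Total FPKM ran between 444141 and 627472 per library, with both control cDC1 libraries at the top. The 2 libraries of a group correlated over the genes tested at r between 0.947 (control cDC1s) and 0.996 (P-IV).

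As background, GM-CSF makes monocytes take up features of dendritic cells and macrophages, and a gene that such cells switch on need not have a known role in them. Several of these genes are best known elsewhere. Fcrls, a scavenger receptor of the Fc receptor-like family, is used as a mouse microglia marker. Klrb1b is an inhibitory lectin-like receptor of natural killer (NK) cells that binds the Clec2d protein, Epcam is an adhesion molecule of epithelia and of Langerhans cells, and Blnk is the adaptor that links the kinase Syk to Btk and phospholipase C gamma in B cells. Gfra2 is the receptor for the nerve growth factor neurturin and signals with the kinase Ret, and Fgfr1 is a receptor tyrosine kinase for fibroblast growth factors (FGFs). Slc27a3 belongs to the fatty acid transport proteins and activates fatty acids with coenzyme A, Ephx1 and Cyp2s1 are enzymes that act on epoxides and other small lipophilic compounds, and Hr (hairless) is a nuclear corepressor of the vitamin D and thyroid hormone receptors that the hair cycle needs.

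The genes lay on 8 chromosomes (RefSeq, build GRCm38.p6), with 2 pairs on the same one. Fcrls (chr3:87250736-87263765) and Slc27a3 (chr3:90385230-90390835) were 3121464 bases apart with 116 genes of the table between them. Hr (chr14:70554056-70573548) and Gfra2 (chr14:70890107-70979840) were 316558 bases apart with 8 genes between them. The others were Klrb1b (chr6:128813706-128826315), Epcam (chr17:87635979-87651127), Fgfr1 (chr8:25518759-25575718), Blnk (chr19:40928927-40994221), Ephx1 (chr1:180989556-181017569) and Cyp2s1 (chr7:25802469-25816525). The promoters of 7 of the 10 genes were in the RefSeq promoter table used here, which gives 250 bases before and 50 bases after a start. The 250 bases before the start given there are printed for 4 genes. For Slc27a3 all of these bases, and for Fcrls most of them, lie inside the gene span given above. The start used for these genes is therefore not the outer end of that span. Fcrls and Slc27a3 are shown because they had the most similar levels across the libraries of the dendritic cell gate, and Epcam and Cyp2s1 because their levels differed between treated and control mice. Capitals mark a match to any of 6 motifs that were searched on both strands.
Fcrls, chr3:87263525-87263774, minus strand: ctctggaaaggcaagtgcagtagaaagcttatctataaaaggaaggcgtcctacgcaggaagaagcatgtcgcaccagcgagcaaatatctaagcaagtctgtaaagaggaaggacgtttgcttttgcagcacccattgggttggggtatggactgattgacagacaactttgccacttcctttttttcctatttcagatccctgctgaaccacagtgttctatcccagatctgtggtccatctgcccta
Slc27a3, chr3:90389939-90390188, minus strand: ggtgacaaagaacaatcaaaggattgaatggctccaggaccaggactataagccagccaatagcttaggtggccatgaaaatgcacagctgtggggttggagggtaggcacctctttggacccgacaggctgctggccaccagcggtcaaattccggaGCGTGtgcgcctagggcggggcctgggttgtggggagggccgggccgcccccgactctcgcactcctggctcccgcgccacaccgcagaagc
Epcam, chr17:87635729-87635978, plus strand: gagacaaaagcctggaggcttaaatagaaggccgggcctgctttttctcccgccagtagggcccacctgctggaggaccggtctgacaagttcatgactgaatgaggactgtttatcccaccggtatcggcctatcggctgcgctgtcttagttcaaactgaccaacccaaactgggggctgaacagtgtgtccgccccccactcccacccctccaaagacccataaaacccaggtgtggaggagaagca
Cyp2s1, chr7:25816526-25816775, minus strand: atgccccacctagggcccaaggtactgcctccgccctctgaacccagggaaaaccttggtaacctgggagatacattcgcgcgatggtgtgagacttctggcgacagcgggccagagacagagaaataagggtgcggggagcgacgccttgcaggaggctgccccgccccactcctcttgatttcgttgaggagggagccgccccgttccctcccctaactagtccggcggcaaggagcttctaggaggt
The motifs were GAGGAAGT (ETS factors of the PU.1 type), GGAANNGAA (ETS with IRF), TTCNNNGAA (STAT), GCGTG (aryl hydrocarbon receptor), TGACTCA (AP-1) and TTGCGCAA (CEBP), and no 2 matches overlapped. Among the 300-base windows of the 7 genes, Slc27a3 alone held a match. It had GCGTG 92 bases before the start, in capitals above, and the same motif on the other strand 25 bases after the start. GCGTG was present in 32.4% of all 32851 promoter windows. The shares of the other motifs over all windows were 3.20% (ETS), 8.24% (ETS with IRF), 8.30% (STAT), 5.20% (AP-1) and 0.183% (CEBP). The Slc27a3 and Cyp2s1 stretches were rich in G and C (62.4% and 62.0%), and those of Epcam (56.4%) and Fcrls (46.8%) less so.

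Fcrls had the highest mean FPKM of the 10 genes in P-IV, with Slc27a3 overlapping it. It reached 82.4 and 113 FPKM in P-IV, 15.7 and 19.3 FPKM in P-III, and 1.68 and 0.775 FPKM in P-I. DC-Xs had 90.3 and 82.9 FPKM, GM-CSF cDC1s 0.624 and 0.386 FPKM, GM-CSF cDC2s 0.139 and 0.188 FPKM, and Fcrls was listed at 0 in all 4 control cDC libraries. The P-IV and DC-X libraries overlapped with each other and lay above every other library. At the depth of P-IV replicate 1, 1 FPKM of Fcrls corresponded to about 57.9 fragments, so the P-III and P-I levels were well counted. The cDC libraries were at the bottom of the range, and the lowest P-IV library was 132 times the highest of them.

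Klrb1b also decreased in the order P-IV, DC-Xs, P-III. It was at 43.8 and 42.3 FPKM in P-IV, 15.7 and 16.8 FPKM in P-III, and 1.75 and 0.869 FPKM in P-I. In DC-Xs it was at 25.5 and 24.5 FPKM, between P-III and P-IV and apart from both. GM-CSF cDC1s had 2.1 and 3.0 FPKM, GM-CSF cDC2s 0.440 and 0.183 FPKM, control cDC1s 1.67 and 0.554 FPKM, and both control cDC2 libraries were listed at 0. P-I and control cDC1s overlapped in that order, and the other neighbouring groups did not.

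Epcam was not confined to the monocyte-derived cells. P-IV had 22.5 and 22.6 FPKM, P-III 3.80 and 3.79 FPKM, and P-I 0.409 and 0.408 FPKM, with replicates that nearly coincided. DC-Xs had 14.7 and 13.4 FPKM, below P-IV. GM-CSF cDC2s had 2.32 and 1.69 FPKM, against 6.98 and 7.04 FPKM in control cDC2s, which were above P-III. GM-CSF cDC1s, with 1.62 and 2.09 FPKM, and control cDC1s, with 1.57 and 2.25 FPKM, overlapped with each other and with GM-CSF cDC2s.

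Gfra2 was high in P-IV, in DC-Xs and also in cDC2s of treated mice. It was at 15.9 and 15.7 FPKM in P-IV, 3.03 and 2.67 FPKM in P-III, and 0.163 and 0.0599 FPKM in P-I. DC-Xs had 21.9 and 10.5 FPKM and GM-CSF cDC2s 11.9 and 9.04 FPKM. Control cDC2s, at 2.20 and 2.68 FPKM, overlapped with P-III. The cDC1s were low, with 0.717 and 0.204 FPKM after GM-CSF and 0.696 and 0.246 FPKM in controls.

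Fgfr1 had its highest value in a DC-X library. P-IV stood at 35.1 and 35.3 FPKM, P-III at 10.8 and 8.96 FPKM, and P-I at 0.273 and 0.142 FPKM. DC-Xs had 86.9 and 34.9 FPKM, GM-CSF cDC1s 12.6 and 5.36 FPKM, GM-CSF cDC2s 6.23 and 2.38 FPKM, control cDC1s 0.626 and 0.871 FPKM, and control cDC2s 2.01 and 1.53 FPKM. Replicate 1 was more than 2 times replicate 2 in all 3 groups of the dendritic cell gate from treated mice, and the P-III, GM-CSF cDC1 and GM-CSF cDC2 libraries overlapped in part.

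Blnk, the Syk adaptor, had the smallest ratios of P-IV to P-III and P-I. P-IV had 66.6 and 68.2 FPKM, P-III 34.6 and 30.0 FPKM, and P-I 10.4 and 6.60 FPKM. DC-Xs had 66.9 and 57.9 FPKM and overlapped with P-IV. GM-CSF cDC1s had 0.514 and 0.712 FPKM, GM-CSF cDC2s 2.80 and 1.72 FPKM, control cDC1s 0.635 and 0.181 FPKM, and control cDC2s 3.32 and 1.18 FPKM, all below P-I.

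Slc27a3, the fatty acid activating enzyme, was at 79.9 and 104 FPKM in P-IV, 17.9 and 23.9 FPKM in P-III, and 6.77 and 3.83 FPKM in P-I. DC-Xs had 121 and 90.4 FPKM. GM-CSF cDC1s had 0.923 and 0.993 FPKM, GM-CSF cDC2s 0.191 and 0.221 FPKM, control cDC1s 0.115 and 0.232 FPKM, and control cDC2s were listed at 0. As with Fcrls, P-IV and DC-Xs overlapped and stood far above all cDCs.

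Ephx1, the epoxide hydrolase, was at 56.5 and 66.3 FPKM in P-IV, 25.7 and 27.5 FPKM in P-III, and 8.09 and 5.43 FPKM in P-I, with 55.8 and 69.6 FPKM in DC-Xs. It was detected in every cDC library, at 7.16 and 5.94 FPKM in GM-CSF cDC1s, 2.54 and 2.18 FPKM in GM-CSF cDC2s, 6.92 and 4.67 FPKM in control cDC1s, and 3.76 and 1.85 FPKM in control cDC2s. P-I and the 2 cDC1 groups overlapped.

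Cyp2s1, a cytochrome P450, was the least abundant in P-IV, at 10.8 and 11.4 FPKM, with 2.19 and 1.50 FPKM in P-III and 0.430 and 0.141 FPKM in P-I. DC-Xs had 11.8 and 9.13 FPKM, and GM-CSF cDC1s were close below with 8.21 and 6.36 FPKM. Control cDC1s had 1.34 and 0.505 FPKM. GM-CSF cDC2s had 1.96 and 3.52 FPKM and control cDC2s 5.53 and 2.32 FPKM, so that the P-III mean ranked under those of 3 cDC groups, overlapping with GM-CSF cDC2s.

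Hr was above 1 FPKM in P-IV, P-III and DC-Xs and in no other group. It had 19.5 and 21.4 FPKM in P-IV, 3.80 and 3.51 FPKM in P-III, and 0.164 and 0.0672 FPKM in P-I. DC-Xs had 47.6 and 14.4 FPKM, on both sides of the P-IV libraries. All 8 cDC libraries were at 0.301 FPKM or less, and both control cDC1 libraries were listed at 0.

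**Figure D1:**
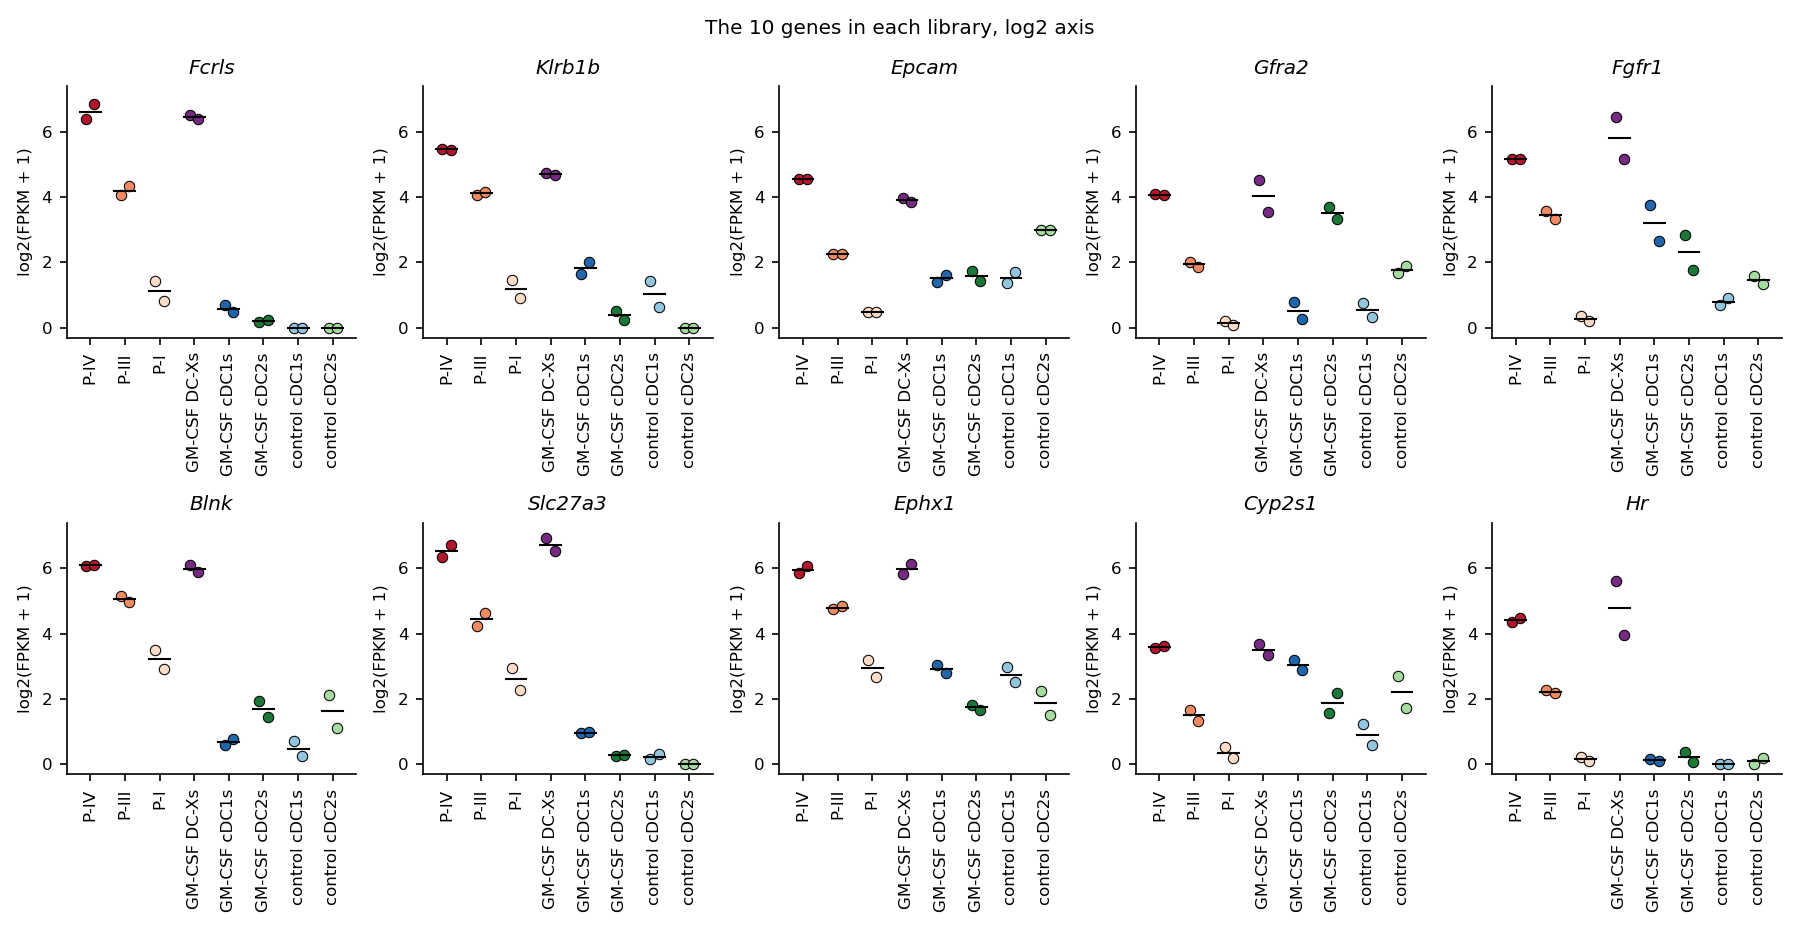
Level of each gene as log2(FPKM + 1) (vertical axis) in the 8 groups (horizontal axis). Points are the 2 libraries of a group and lines their mean. P-IV and DC-Xs are the 2 highest groups for all 10 genes. Fcrls, Slc27a3 and Hr are under 1 FPKM in all 8 cDC libraries, and the other 7 genes exceed 1 FPKM in some of them.

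Both P-IV libraries were above both P-III and both P-I libraries for all 10 genes, as the choice of genes requires for at least one of these populations. The difference of mean log2(FPKM + 1) was at least 1 for 10 of 10 genes in P-IV minus P-III, which 0.900% of all genes tested reached, and for 10 of 10 in P-IV minus P-I, which 3.39% reached. Nothing is read from these counts, since the genes were chosen on them. Blnk was nearest to that limit, and without P-III replicate 2 its difference to P-III was 0.94. The ratio of mean FPKM of P-IV over P-III ran between 2.09 (Blnk) and 6.00 (Cyp2s1), and that of P-IV over P-I between 7.94 (Blnk) and 177 (Hr). P-III was between P-I and P-IV for all 10 genes. It had covered 40.4% of the distance in FPKM from P-I to P-IV for Blnk, 36.3% for Ephx1, 35.9% for Klrb1b and 27.7% for Fgfr1, and between 14.5% and 18.0% for the other 6 genes. In sorted bulk samples, fewer cells with a gene switched on and less of its RNA per cell cannot be told apart.

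DC-Xs are samples that the choice of genes did not use, although by the study's account they are mainly P-IV cells. At least 4 of the 10 genes (Fcrls, Slc27a3, Blnk and Ephx1) were also picked by the study as higher in P-IV than in these cDCs. For these genes the outcome was largely set by that choice, and the counts are no independent evidence. Most of the 10 genes were also higher in DC-Xs than in the 2 cDC subsets of the same treatment. In DC-Xs minus GM-CSF cDC1s, 9 of 10 genes were higher at an adjusted p under 0.05 and a log2 difference of at least 1, against 8.95% of all genes tested higher and 7.49% lower. In DC-Xs minus GM-CSF cDC2s, 9 of 10 were again higher, against 6.78% of all genes higher and 7.96% lower. The median difference of the 10 genes was 3.29 against cDC1s and 4.27 against cDC2s, beside -0.06 and -0.15 over all genes. The GM-CSF cDC libraries are different in the 2 comparisons, but the DC-X libraries are shared.

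The scavenger receptor Fcrls had the largest difference against cDC1s, 5.87 ± 0.24 (log2, SE; adjusted p = 1.15e-08, limma), and 6.23 ± 0.24 against cDC2s (adjusted p = 3.77e-08, limma). Slc27a3 had 5.76 ± 0.26 against cDC1s (adjusted p = 1.85e-08, limma) and the largest difference against cDC2s, 6.45 ± 0.26 (adjusted p = 3.77e-08, limma). Blnk was higher in DC-Xs by 5.30 ± 0.32 and 4.30 ± 0.32 on the log2 scale, and Hr by 4.64 ± 0.38 and 4.55 ± 0.38. For each of these genes both DC-X libraries were above all 4 GM-CSF cDC libraries. The differences against cDC1s and cDC2s were 2.89 ± 0.28 and 4.32 ± 0.28 for Klrb1b, 3.07 ± 0.28 and 4.24 ± 0.28 for Ephx1, 2.59 ± 0.45 and 3.51 ± 0.45 for Fgfr1, and 2.40 ± 0.21 and 2.33 ± 0.21 for Epcam. All 18 calls of higher levels in DC-Xs passed under each of the 14 alternatives tried.

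Each comparison had 1 exception. Cyp2s1 in DC-Xs was 0.47 ± 0.35 above GM-CSF cDC1s on the log2 scale (adjusted p = 0.384, limma), though both DC-X libraries were above both cDC1 libraries, and it passed against cDC2s with 1.64 ± 0.35 (adjusted p = 0.00463, limma). Gfra2 was 0.51 ± 0.31 above GM-CSF cDC2s (adjusted p = 0.285, limma), with the lower DC-X library inside the cDC2 range, and passed against cDC1s with 3.50 ± 0.31 (adjusted p = 4.50e-06, limma). Without DC-X replicate 2, Gfra2 also passed against cDC2s (1.01, adjusted p = 0.0460, limma).

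**Figure D2:**
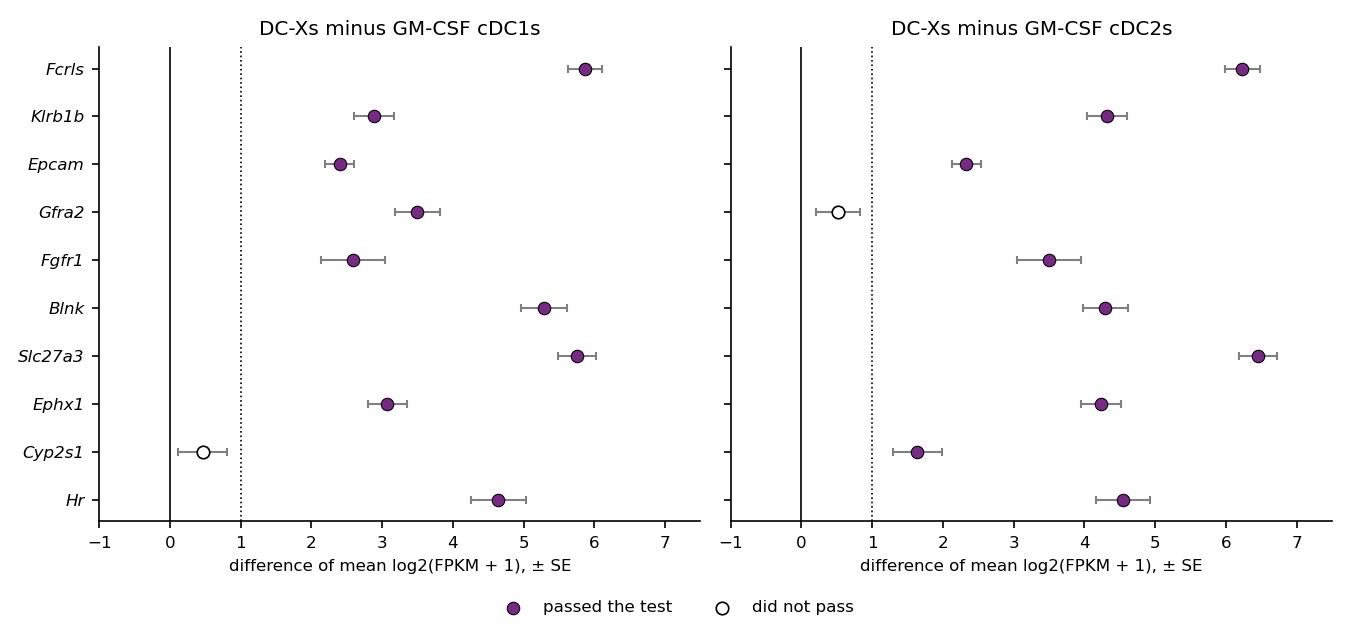
Difference of mean log2(FPKM + 1) with its standard error (horizontal axis) for each gene (vertical axis), DC-Xs minus GM-CSF cDC1s on the left and DC-Xs minus GM-CSF cDC2s on the right; the dotted line marks a difference of 1. Filled points passed the test. Cyp2s1 at 0.47 on the left and Gfra2 at 0.51 on the right are the open points.

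The 2 DC-X libraries did not carry the 10 genes at the same level. Replicate 1 minus replicate 2 was 1.66 on the log2 scale for Hr, 1.29 for Fgfr1 and 0.99 for Gfra2. Of the 11335 genes tested, 99.1%, 98.0% and 95.0% had a smaller difference in size between these libraries, and the median over all genes was 0.30. For Fcrls, Klrb1b and Epcam the DC-X replicates differed by 0.12, 0.05 and 0.13. In P-IV the same 3 genes Hr, Fgfr1 and Gfra2 differed by at most 0.12 between replicates, and the widest spread was that of Fcrls (-0.45) and Slc27a3 (-0.37), the median over all genes being 0.08. Relative to the P-IV mean, the DC-X mean was 1.73 times as high for Fgfr1 and 1.52 times for Hr, in each case through replicate 1, and 0.582 and 0.622 times for Klrb1b and Epcam, where both DC-X libraries were between P-III and P-IV.

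**Figure D3:**
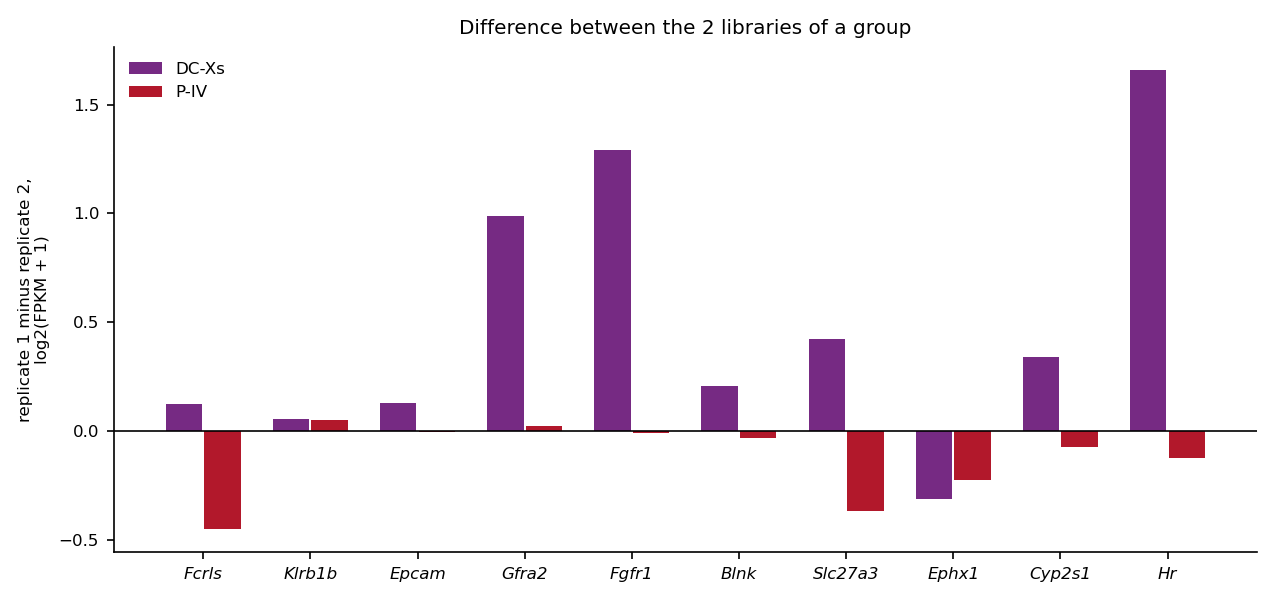
Replicate 1 minus replicate 2 as a difference of log2(FPKM + 1) (vertical axis) for each gene (horizontal axis), DC-Xs left of P-IV. The DC-X bars of Hr (1.66), Fgfr1 (1.29) and Gfra2 (0.99) are far longer than their P-IV bars.

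The effect of GM-CSF treatment was compared within each cDC subset. In cDC1s, 2 of 10 genes were higher in treated than in control mice and 0 were lower, against 10.4% and 4.41% of all genes tested. Fgfr1 rose by 2.42 ± 0.45 on the log2 scale (adjusted p = 0.00402, limma) and Cyp2s1 by 2.13 ± 0.35 (adjusted p = 0.00211, limma), and for each both treated libraries were above both control libraries. In cDC2s, Gfra2 rose by 1.73 ± 0.31 (adjusted p = 0.00598, limma) and Epcam fell by 1.42 on the log2 scale (SE 0.21, adjusted p = 0.00169, limma), again with no overlap of the groups, against 3.21% of all genes higher and 2.06% lower. The median over the 10 genes was 0.40 in cDC1s and 0.17 in cDC2s, beside 0.14 and 0.02 over all genes. In a fit to the 10 libraries of the dendritic cell gate, Fgfr1, Cyp2s1 and Epcam passed (adjusted p = 0.0341, 0.0270 and 0.0489, limma) and Gfra2 did not (adjusted p = 0.0609, limma). In fits to the 4 libraries of a comparison, in which 5 (cDC1s) and 6 (cDC2s) of the 10 genes passed the filter, adjusted p was 0.139 for Fgfr1 and Cyp2s1, 0.130 for Epcam and 0.0782 for Gfra2, and without control cDC2s replicate 1 it was 0.0547 for Gfra2.

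For Fcrls, Slc27a3, Blnk and Hr the treatment differences in cDCs are given as a description. Treated minus control was 0.59 ± 0.24 in cDC1s and 0.22 ± 0.24 in cDC2s for Fcrls, 0.74 ± 0.26 and 0.27 ± 0.26 for Slc27a3, 0.21 ± 0.32 and 0.07 ± 0.32 for Blnk, and 0.13 ± 0.38 and 0.13 ± 0.38 for Hr. Fcrls, Slc27a3 and Hr were under 1 FPKM in all 8 cDC libraries and entered the fit only through groups outside the cDCs, so nothing is read from these differences. Blnk was under 1 FPKM in the 4 cDC1 libraries. These values are compressed by the pseudocount of 1, since most of the libraries were under 1 FPKM. With a pseudocount of 0.1, Fcrls (2.57) and Slc27a3 (1.99) passed in cDC1s, and Slc27a3 (1.61) and Klrb1b (1.97) in cDC2s, all at levels under 1 FPKM in the libraries compared, which brought the calls to 4 in each subset. Klrb1b was 0.79 ± 0.28 higher in treated cDC1s (adjusted p = 0.0547, limma), and passed without control cDC1s replicate 1 (1.18, adjusted p = 0.00685, limma). For Ephx1, treated minus control was 0.17 ± 0.28 in cDC1s and -0.13 ± 0.28 in cDC2s.

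The difference between these 2 treatment effects was tested directly, as the effect in cDC1s minus the effect in cDC2s. It passed for 3 genes, 2 higher and 1 lower, against 4.24% and 2.59% of all genes. Cyp2s1 had 2.48 ± 0.49 (adjusted p = 0.0179, limma), Epcam 1.40 ± 0.29 (adjusted p = 0.0215, limma) and Gfra2 -1.75 ± 0.44 (adjusted p = 0.0375, limma). The effect on Fgfr1, which passed in cDC1s and not in cDC2s (0.84 ± 0.45), was not shown to differ between them (1.57 ± 0.64, adjusted p = 0.135, limma). These calls were sensitive to the fit. None of the 3 passed with library weights or in fits to the dendritic cell gate, where adjusted p was 0.151 to 0.210, and only Cyp2s1 passed without GM-CSF cDC1s replicate 2 or GM-CSF cDC2s replicate 2. Gfra2 also did not pass with a pseudocount of 0.1 (adjusted p = 0.106, limma) or with no filter on low values (adjusted p = 0.0607, limma).

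**Figure D4:**
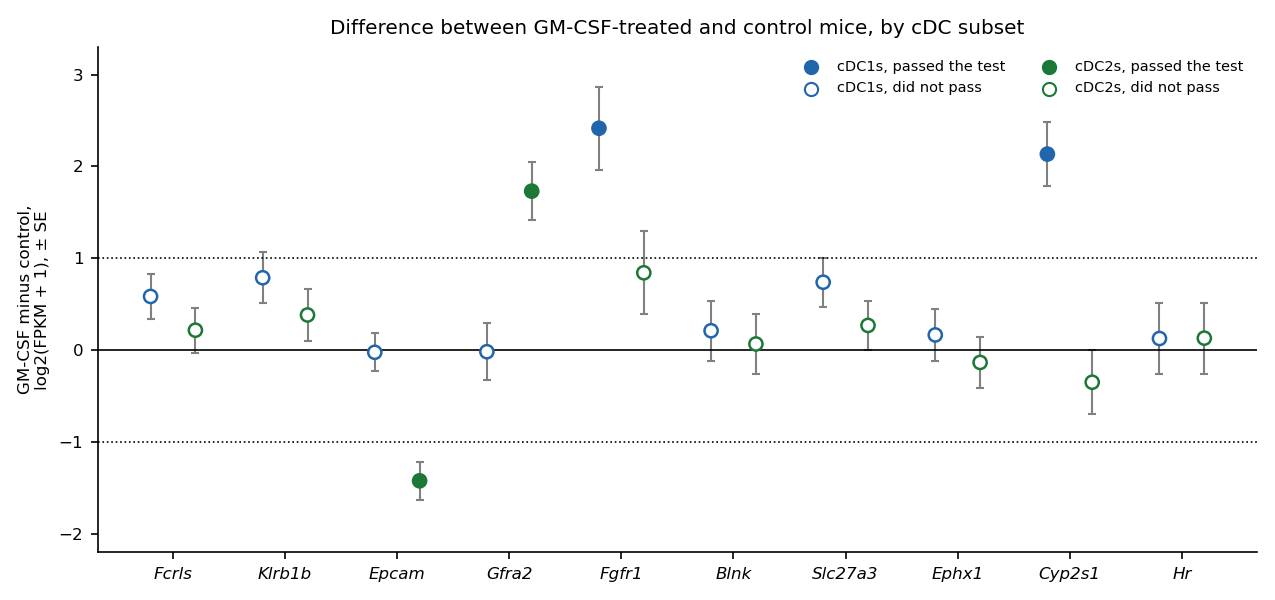
GM-CSF minus control as a difference of mean log2(FPKM + 1) with its standard error (vertical axis) for each gene (horizontal axis), cDC1s in blue and cDC2s in green; dotted lines mark -1 and 1. Filled points passed the test, namely Fgfr1 (2.42) and Cyp2s1 (2.13) in cDC1s, and Gfra2 (1.73) and Epcam (-1.42) in cDC2s.

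Between the subsets of treated mice, GM-CSF cDC1s minus GM-CSF cDC2s, 3 genes were higher and 1 was lower, against 6.01% and 8.80% of all genes. Klrb1b was higher in cDC1s by 1.43 ± 0.28, Ephx1 by 1.16 ± 0.28 and Cyp2s1 by 1.17 ± 0.35 on the log2 scale (adjusted p = 0.00270, 0.00959 and 0.0297, limma). Gfra2 was lower by 2.99 (SE 0.31, adjusted p = 1.96e-05, limma). Klrb1b and Gfra2 passed under every alternative tried. Ephx1 did not pass without GM-CSF cDC1s replicate 1 (1.05, adjusted p = 0.0733, limma) or GM-CSF cDC2s replicate 2 (1.09, adjusted p = 0.0582, limma). Cyp2s1 did not pass without GM-CSF cDC1s replicate 1, GM-CSF cDC1s replicate 2 or GM-CSF cDC2s replicate 1 (adjusted p = 0.164, 0.0538 and 0.194, limma), and it passed in 6 of 14 alternatives. With a pseudocount of 0.1, Fcrls (1.18) and Slc27a3 (1.79) were also called higher and Blnk (-1.70) lower in GM-CSF cDC1s than in GM-CSF cDC2s. Fcrls and Slc27a3 were under 1 FPKM in every library compared and entered the fit only through groups outside the cDCs. Nothing is read from their calls. Blnk was under 1 FPKM in both GM-CSF cDC1 libraries.

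In control mice, cDC1s minus cDC2s gave 1 gene higher and 4 lower, against 11.2% and 20.6% of all genes. Klrb1b was higher in cDC1s by 1.03 ± 0.28 (adjusted p = 0.00976, limma), with both cDC2 libraries listed at 0. Of the libraries compared, only control cDC1s replicate 1 (1.67 FPKM) reached 1 FPKM for Klrb1b. The gene entered the fit through groups outside this comparison, so nothing is read from its call. Epcam (-1.47 ± 0.21), Cyp2s1 (-1.31 ± 0.35), Gfra2 (-1.24 ± 0.31) and Blnk (-1.14 ± 0.32) were lower in cDC1s. Ephx1 was 0.86 ± 0.28 higher and did not pass by size. This comparison depended on the scaling of the libraries. Of all calls, 35.1% were higher in control cDC1s as deposited, 51.5% after quantile normalization and 49.0% after median-of-ratios scaling, and the median of all genes moved by 0.27 and 0.18 on the log2 scale. With a pseudocount of 0.1, Slc27a3 (1.42) and Ephx1 (1.08) passed as well. Slc27a3 was under 1 FPKM in every library compared and listed at 0 in both cDC2 libraries, so nothing is read from its call. After quantile normalization, Epcam (-1.02), Klrb1b (1.22) and Ephx1 (1.41) passed. Leaving out control cDC1s replicate 2 left 3 genes passing in place of 5, since Gfra2, Blnk and Cyp2s1 no longer passed (adjusted p = 0.0504, 0.0832 and 0.0714, limma) and Ephx1 did (1.10). Blnk and Cyp2s1 also failed without control cDC2s replicate 1 (adjusted p = 0.132 and 0.0897, limma), and Klrb1b without control cDC1s replicate 1 (adjusted p = 0.0755, limma).

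Across the 16 libraries, the levels of these genes followed each other to different degrees. These correlations are over libraries of 8 groups, they rest on the same high groups for every gene, and they are given without a test. Fcrls and Slc27a3 had r = 0.985 over the 16 libraries and r = 0.998 over the 10 libraries of the dendritic cell gate. Fcrls also had r = 0.973 with Hr, 0.972 with Ephx1, 0.965 with Klrb1b and 0.947 with Blnk. Cyp2s1 stood farthest off, with r = 0.420 to Blnk and 0.495 to Slc27a3. It was nearest to Fgfr1, at r = 0.841. Gfra2 ranged between r = 0.538 (Ephx1) and 0.779 (Epcam), and with its chromosomal neighbour Hr it had r = 0.764.

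The genes outside the 10 with the most similar pattern were found by the same correlation of log2(FPKM + 1) over the 16 libraries. For Fcrls they were Il1rl1 (r = 0.992), the receptor for interleukin-33, with Diras2 (0.988) and Upb1 (0.986). Il1rl1 averaged 13.3 FPKM in P-IV, 2.91 FPKM in P-III, 0.413 FPKM in P-I and 12.2 FPKM in DC-Xs, and at most 0.150 FPKM in a cDC group. Hr was closest to Cd209c (0.984), Il1rl1 (0.984) and Omp (0.980), and Gfra2 to Cd209b (0.932), Kcnd1 (0.929) and Clec4g (0.923). Cd209b, Cd209c and Clec4g are C-type lectins. Slc27a3 was closest to Tle6 (0.990), Capn5 (0.982) and Mgl2 (0.982), the gene for the sort marker CD301b. Klrb1b was closest to Upb1 (0.971), Synpo (0.969) and Kazald1 (0.961), Ephx1 to Upb1 (0.968), Asgr2 (0.967) and Ntn4 (0.966), and Blnk to Cd163 (0.981), Nrp2 (0.978) and Capn5 (0.976). Fgfr1 was closest to Baiap2 (0.950), Tnip2 (0.920) and Hipk2 (0.900), Epcam to Syngr2 (0.897), Klrb1a (0.884) and Igflr1 (0.884), and Cyp2s1 to Prmt2 (0.869), Adam8 (0.862) and Tnip2 (0.842).

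The nearest tested genes on either side of each gene mostly did not share its pattern. For these and for the gene lists below, the limma test of P-IV against P-III and P-I was used. This step was added after the design, and the lists were chosen with earlier results of these data known. Calls in the lists are therefore no independent evidence. The test called 0.273% of all genes higher and 0.318% lower in P-IV than in P-III, and 2.43% higher and 4.86% lower than in P-I. Of the neighbours, Klrb1a alone passed against P-III. Klrb1a, an NK receptor gene 190771 bases from Klrb1b, was at 3.52 and 3.68 FPKM in P-IV, 1.15 and 1.14 FPKM in P-III, and 0.195 and 0.0336 FPKM in P-I, with log2 differences of 1.10 ± 0.22 to P-III (adjusted p = 0.0471, limma) and 2.05 ± 0.22 to P-I (adjusted p = 7.16e-05, limma). It is a close relative of Klrb1b, and whether fragments were shared between them was not tested. Next to Gfra2, Dok2, an adaptor of tyrosine kinase signalling, averaged 221 FPKM in P-IV, 153 FPKM in P-III and 71.9 FPKM in P-I, and was higher in P-IV than in P-I by 1.82 on the log2 scale (adjusted p = 0.0238, limma). The other 3 tested genes between Hr and Gfra2 (Nudt18, Fam160b2 and Xpo7) did not pass in either comparison. The neighbours of Fcrls, Cd1d1 and Cd5l, differed from P-III by 0.06 and -0.08.

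Partners of the receptors and adaptors were next read from lists of pathway genes. The GDNF (glial cell line-derived neurotrophic factor) list of ligands and receptors other than Gfra2 had 1 of 10 genes tested, Ncam1, an adhesion molecule that also binds GDNF, which did not pass against P-III and was lower in P-IV than in P-I (-1.02 ± 0.15, adjusted p = 0.000721, limma). Ret, the kinase that Gfra2 works with, was not among the genes tested. It was at 0.499 and 0.502 FPKM in P-IV, 0.468 and 0.457 FPKM in P-III, and 0.173 and 0.127 FPKM in P-I, below 1 FPKM in every library, and the ligand gene Nrtn was at most 0.126 FPKM. Of the FGF pathway list, 8 of 17 genes were tested. None passed against P-III, and 1 fell against P-I, Dusp6, a phosphatase that FGF signalling induces, with 21.9 and 21.2 FPKM in P-IV, 60.3 and 58.5 FPKM in P-III, and 87.5 and 82.0 FPKM in P-I (P-IV minus P-I -1.93 ± 0.30, adjusted p = 0.00116, limma). With GM-CSF, Dusp6 fell in cDC1s (-1.69 ± 0.30), and in cDC2s Dusp6, Frs3 and Spred1 fell (-2.12, -1.63 and -1.48). In each subset 0 of the 8 genes passed as higher. Of all genes, 4.41% were lower with GM-CSF in cDC1s and 2.06% in cDC2s. Whether FGF signalling differed between any of these cells was not tested.

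Of 15 genes that work with the Blnk adaptor, 0 passed in either direction between P-IV and P-III or between P-IV and P-I, with list medians of -0.0016 and -0.011. Syk was at 80.0 and 68.7 FPKM in P-IV, 76.1 and 68.4 FPKM in P-III, and 60.0 and 58.0 FPKM in P-I, and Btk at 47.2 and 43.5 FPKM in P-IV, 36.8 and 45.9 FPKM in P-III, and 47.3 and 46.5 FPKM in P-I, so these partners of Blnk were present in all 3 populations. In DC-Xs minus GM-CSF cDC1s, 5 of the 15 were higher and 0 lower, against 8.95% and 7.49% of all genes. Among the 5 were Syk (2.55 ± 0.38) and Sh3kbp1 (2.38 ± 0.17). In DC-Xs minus GM-CSF cDC2s, 0 were higher and 1, Cd79b, was lower, against 6.78% and 7.96% of all genes.

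Among 10 NK receptor (NKR-P1) and Clr ligand genes, 5 were tested, and Klrb1a was the 1 that passed between P-IV and P-III or P-I. Clec2d, the ligand gene of Klrb1b, was at most 1.93 FPKM in any library. Of 5 further Fc receptor-like genes 3 were tested, with 0 passing against P-III and Fcrlb higher than in P-I (1.72 ± 0.27, adjusted p = 0.00129, limma). Unlike Fcrls, Fcrlb was at a like level in P-IV (15.2 and 16.6 FPKM) and in cDC1s (17.0 and 21.9 FPKM after GM-CSF, 22.1 and 15.5 FPKM in controls).

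The metabolic relatives of Slc27a3, Ephx1 and Cyp2s1 were read in the same way, beside shares of 0.273% of all genes higher and 0.318% lower in P-IV than in P-III. Of the 7 fatty acid transport and acyl-CoA synthetase genes tested, 0 passed against P-III or P-I. In DC-Xs, 3 were higher and 0 lower than in GM-CSF cDC1s, against 8.95% and 7.49% of all genes. Against GM-CSF cDC2s, 2 were higher and 1 lower, beside 6.78% and 7.96% of all genes. Slc27a1 (1.11 ± 0.30 and 2.00 ± 0.30) and Acsl3 (1.45 ± 0.33 and 1.15 ± 0.33) were higher than in both. Slc27a2 was lower than in GM-CSF cDC2s (-1.74 ± 0.16). Of 16 genes of xenobiotic oxidation and the aryl hydrocarbon receptor, 0 passed against P-III. Against P-I 1 was higher, Aldh1a2, a retinoic acid synthesis enzyme (3.08 ± 0.37), and 2 were lower, Gstm1 (-1.79) and Mgst1 (-4.34). The shares of all genes against P-I were 2.43% higher and 4.86% lower. In DC-Xs, 4 of the 16 were higher and 0 lower than in GM-CSF cDC1s, and 4 and 0 against GM-CSF cDC2s, beside the shares given above. Gstm1 was among the higher genes in both (2.83 and 3.03), and Mgst1 against cDC1s (1.58). Ahr, the receptor itself, was at 13.6 and 13.8 FPKM in P-IV, 12.7 and 14.7 FPKM in P-III, and 12.0 and 13.2 FPKM in P-I. In treated mice it differed between the replicates of the dendritic cell gate, as Fgfr1 did, with 31.8 and 13.3 FPKM in DC-Xs, 38.1 and 9.41 FPKM in GM-CSF cDC1s, and 25.3 and 5.44 FPKM in GM-CSF cDC2s. Its dimer partner Arnt, like Cyp2s1, was higher in cDC1s of treated mice (2.09 ± 0.24, adjusted p = 0.000618, limma). Cyp1a1, a target of the receptor in many tissues, was listed at 0 in all libraries. Of 11 nuclear receptor and corepressor genes that hairless works with, 0 passed between P-IV and P-III or P-I. The vitamin D receptor gene Vdr was at 2.28 and 2.48 FPKM in P-IV, 0.898 and 0.998 FPKM in P-III, and 1.76 and 0.863 FPKM in P-I, and in DC-Xs it was higher than in GM-CSF cDC1s (1.98 ± 0.20) and GM-CSF cDC2s (1.82 ± 0.20).

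Markers of the cells in which these genes are best known were read from the same libraries. Of 10 epithelial markers other than Epcam, 9 were under 1 FPKM in both P-IV libraries and 6 were listed at 0 in both, and their sum was 1.96 to 2.44 FPKM in P-IV, 1.81 to 2.08 FPKM in P-III, 3.88 to 4.73 FPKM in P-I, and at most 0.749 FPKM in control cDC2s. The highest in P-IV was Cdh1, at 2.04 and 1.57 FPKM in P-IV. The 5 Langerhans cell genes, which include Cdh1, summed to 3.08 to 3.69 FPKM in P-IV, 1.78 to 3.05 FPKM in P-III, and 3.17 to 4.91 FPKM in P-I. Among them Cd207 was at most 0.269 FPKM in P-IV, and it averaged 232 FPKM in GM-CSF cDC1s and 57.1 FPKM in control cDC1s. B cell markers summed to 43.1 to 48.1 FPKM in P-IV, 59.9 to 60.1 FPKM in P-III, 31.6 to 74.4 FPKM in P-I and 12.4 to 15.8 FPKM in DC-Xs, and to 67.2 to 82.5 FPKM in control cDC2s. Their part in the Blnk levels was not tested. NK cell markers summed to 5.02 to 5.29 FPKM in P-IV, 5.70 to 6.07 FPKM in P-III, and 11.2 to 20.4 FPKM in P-I. The microglia genes Tmem119 (at most 0.0252 FPKM) and Sall1 (listed at 0) were near absent from P-IV, and Cx3cr1, P2ry12 and Trem2 were lower in P-IV than in P-I (-3.27, -2.29 and -3.19). Summed neutrophil markers were 4.02 to 4.28 FPKM in P-IV, 14.0 to 16.5 FPKM in P-III, and 175 to 331 FPKM in P-I, with all 8 tested markers lower in P-IV than in P-I and 1, Csf3r, lower than in P-III (-1.80). The NK cell marker Nkg7 (-1.84), the T cell marker Cd3g (-1.11), the plasma cell marker Sdc1 (-1.06) and the plasmacytoid DC marker Bst2 (-1.15) were also lower in P-IV than in P-I. Of 10 red pulp macrophage markers, Cd163 (1.83) and Vcam1 (1.81) were higher in P-IV than in P-I and 0 were lower, with a list median of 1.24 and sums of 270 to 276 FPKM in P-IV, 322 to 327 FPKM in P-III, and 215 to 237 FPKM in P-I. Of 8 stromal markers, Pecam1 alone was tested, and it was higher in P-IV than in P-I (1.97). The part of these markers in the P-IV minus P-I differences was not tested.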

How the data were processed

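Per the labels and the study's methods, RNA of the sorted cells was made into libraries with a SMARTer kit and sequenced on a NovaSeq. The authors prepared reads with bcl2fastq 1.8.4, aligned them to mm10 with HISAT2 2.1.0 and estimated FPKM with StringTie 1.3.4d, and they deposited FPKM for 24532 genes in 16 libraries. FPKM scale with the rest of a library, so a few very abundant genes can shift all others. Steps in low values gave 24570000 to 47100000 fragments for 11 libraries, and for 5 the depth was not clear.

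The members and gene lists were chosen with earlier results of these data known. From the deposited FPKM, log2(FPKM + 1) was fitted for 11335 genes (at least 1 FPKM in 2 libraries) with limma 3.58.1 (variance trend, all 16 libraries in 1 fit, 8 residual degrees of freedom, R 4.3.3). P-values were two-sided and adjusted by Benjamini-Hochberg over all genes tested in each of 7 comparisons. A gene was called, or passed, at an adjusted p under 0.05 and a log2 difference of at least 1 in size, after the study's 2-fold rule. Differences on this scale understate changes of low genes. For P-IV against P-III and P-I, limma was applied only to list genes and neighbours, a step added after the design. Named genes were the 10 genes, for each the 3 others with the highest correlation, the nearest tested genes on each side, gate and marker genes, and called genes of the lists (at most 5 a list by size of change), with partners and ligands named for their role after their values were seen. Alternatives were another pseudocount, filter, scaling, library weights, a replicate block, a length correction, fits to fewer libraries and leaving out each library. The fit was tested on simulated data. Promoters came from RefSeq (GRCm38.p6).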

Additional observations from a re-analysis of the deposited data

Results flagged for a closer look

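For 3 genes the effect of GM-CSF (treated minus control) differed between the cDC subsets by a test of the difference itself. On the log2 scale, the effect in cDC1s minus that in cDC2s was 2.48 for Cyp2s1, which was 2.13 higher after GM-CSF in cDC1s and -0.35 in cDC2s. It was 1.40 for Epcam, with -0.02 in cDC1s and -1.42 in cDC2s, and -1.75 for Gfra2, with -0.02 in cDC1s and 1.73 in cDC2s. Cyp2s1 passed in 15 alternatives and failed in 3, Epcam passed in 12 and failed in 6, and Gfra2 passed in 8 and failed in 10, among them a pseudocount of 0.1 (adjusted p = 0.106, limma) and no filter on low values (adjusted p = 0.0607, limma).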

How the results depend on the processing

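No call among the 10 genes changed direction. The 18 calls of DC-Xs against cDCs passed in each of 14 alternatives. With a pseudocount of 0.1, the 10 genes had 4 calls in place of 2 for the GM-CSF effect in cDC1s, and 4 in place of 2 for that in cDC2s. With library weights, the difference of the GM-CSF effects had 0 calls in place of 3, and control cDC1s against control cDC2s 1 in place of 5. That last comparison had 3 calls after quantile normalization and 3 after a length correction. In the fit to the dendritic cell gate, calls were 1 for GM-CSF in cDC2s, 0 for the difference of effects and 2 in place of 4 for GM-CSF cDC1s against GM-CSF cDC2s. In fits to the libraries of a contrast, where 5 to 7 of the 10 genes passed the filter, they were 0 for GM-CSF in cDC1s, 0 in cDC2s, 0 for the difference of effects, 2 for GM-CSF cDC1s against GM-CSF cDC2s and 2 for control cDC1s against control cDC2s. Apart from the smaller fits, the cause was not tested.

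Leaving out 1 library at a time gave 9 to 9 and 9 to 10 calls for DC-Xs against GM-CSF cDC1s and cDC2s, 2 to 3 and 1 to 2 for GM-CSF in cDC1s and cDC2s, 1 to 3 for the difference of effects, 2 to 3 for GM-CSF cDC1s against GM-CSF cDC2s, and 3 to 5 for control cDC1s against control cDC2s. Genes at a log2 difference of at least 1 were 9 to 10 for P-IV against P-III and 10 to 10 for P-IV against P-I. The replicate block changed no count of calls among the 10 genes (9, 9, 2, 2, 3, 4 and 5). The labels do not say that a replicate number marks a shared mouse or day. Deviations of same-numbered libraries correlated at -0.014 between GM-CSF and control cDC1s, 0.396 between GM-CSF and control cDC2s, 0.671 between GM-CSF cDC1s and GM-CSF cDC2s, 0.431 and 0.471 between DC-Xs and GM-CSF cDC1s and cDC2s, and 0.099 between control cDC1s and control cDC2s.

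Over all genes, calls for GM-CSF in cDC1s were 1678, against 830 with the length correction, 454 with library weights, 689 in the gate fit and 0 in the contrast fit. In cDC2s they were 598, against 322, 159 and 123 in the last 3 of these settings, and for the difference of effects 775, against 269, 4, 2 and 2 in the 4 settings. P-IV against P-III had 67, and 31 with a pseudocount of 0.1. The share of calls that were higher was 70.2% for GM-CSF in cDC1s, against 54.5% after quantile normalization, 51.2% after median-of-ratios scaling and 56.6% with the length correction. The median of all genes there was 0.14, against -0.02 after quantile normalization. The share was 46.0% against 53.9% (quantile) and 56.8% (ratios) for DC-Xs minus GM-CSF cDC2s, so that the majority of calls turned, 62.1% against 50.2% (length) for the difference of effects, 35.1% against 49.3% (length) for control cDC1s minus control cDC2s, and 33.4% against 45.4% (quantile) and 45.0% (ratios) for P-IV minus P-I.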
